A study of Rattus norvegicus with 34 samples.

Results

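The circadian clock output genes Per1, Per2, Per3, Dbp, Tef, Nr1d1, Nr1d2, Bhlhe41, Ciart and Cry2 were followed in left ventricles (LV) and peripheral blood mononuclear cells (PBMCs) of male Wistar rats with and without a myocardial infarction (MI). They were chosen by name, as the transcript clusters that the array annotation assigns to 1 of these symbols. A transcript cluster is the unit that the array reports for a gene. Of the 10 genes, 9 were measured, each by 1 of the 29214 transcript clusters. Ciart shares its only transcript cluster with Ecm1, a gene of extracellular matrix, and is given no value of its own.

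The circadian clock is a feedback loop of transcription. BMAL1 (the product of Bmal1, listed in older annotation as Arntl) pairs with CLOCK or NPAS2, binds E-box sequences and activates the Per and Cry genes, whose proteins repress that pair, as well as Dbp, Tef and the genes of the nuclear receptors REV-ERB alpha and beta (Nr1d1 and Nr1d2), which in turn repress Bmal1. In the heart of rats and mice, as in most tissues, Dbp and the Per genes therefore peak at another time of day than Bmal1, and many genes of cardiac metabolism cycle with them.

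The 4 groups of LV were sampled 2 months after surgery. The sham group (n = 6) underwent the operation without tying of the left coronary artery, and the groups with small (S-MI, n = 6), moderate (M-MI, n = 6) and large infarction (L-MI, n = 5) had the proximal artery ligated. Sham rats gave the whole LV, infarcted rats only tissue free of visible scar, all under ketamine and xylazine anaesthesia after echocardiography and catheterization. PBMCs came from L-MI (n = 5) and sham rats (n = 6), and the hour of sampling is not given in the sources used here. The label of L-MI replicate 1 describes a compensated injury in both tissues, against its title, and it was kept as L-MI. Values are RMA signals, taken as log2, and fold changes are differences of mean log2 signal. Levels were compared neither between genes nor between tissues, which were normalized apart. The 7 cardiomyocyte markers lay between percentiles 98.9 and 99.9 of all transcript clusters in LV, and the 5 T cell markers between percentiles 94.5 and 98.6 in PBMCs. In these bulk samples fewer cells of a type and less RNA per cell cannot be told apart.

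Windows from 250 bases before to 50 bases after starts listed in RefSeq (build GRCr8) were searched for clock-related motifs. They are shown for the measured genes in which a motif was found. The windows of Per1, Per3, Dbp, Nr1d2 and Cry2 held none of the motifs searched. Motifs were not tested against the relations between genes given below. Capitals mark the motif, which is the E-box CACGTG in Tef, Nr1d1 and Bhlhe41, the D-box TTATGTAA in Per2 and the ROR and REV-ERB core TAGGTCA in Bmal1.
Per2: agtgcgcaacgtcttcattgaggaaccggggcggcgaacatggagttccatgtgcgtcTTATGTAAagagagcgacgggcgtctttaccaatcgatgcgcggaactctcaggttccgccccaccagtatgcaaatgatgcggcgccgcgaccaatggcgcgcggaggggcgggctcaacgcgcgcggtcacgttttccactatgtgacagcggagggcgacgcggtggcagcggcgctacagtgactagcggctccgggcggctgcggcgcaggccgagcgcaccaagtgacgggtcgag
Tef: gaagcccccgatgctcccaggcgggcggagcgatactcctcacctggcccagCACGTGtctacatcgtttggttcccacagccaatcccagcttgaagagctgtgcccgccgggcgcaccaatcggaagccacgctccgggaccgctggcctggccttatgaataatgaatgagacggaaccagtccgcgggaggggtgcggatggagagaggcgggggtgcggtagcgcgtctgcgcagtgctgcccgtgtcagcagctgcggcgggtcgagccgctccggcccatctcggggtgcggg
Nr1d1: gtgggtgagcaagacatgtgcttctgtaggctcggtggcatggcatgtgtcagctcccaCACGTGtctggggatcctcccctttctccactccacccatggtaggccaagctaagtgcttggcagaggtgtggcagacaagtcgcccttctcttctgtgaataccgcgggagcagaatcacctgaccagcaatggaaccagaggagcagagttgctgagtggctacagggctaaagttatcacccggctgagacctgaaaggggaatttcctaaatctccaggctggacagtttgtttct
Bhlhe41: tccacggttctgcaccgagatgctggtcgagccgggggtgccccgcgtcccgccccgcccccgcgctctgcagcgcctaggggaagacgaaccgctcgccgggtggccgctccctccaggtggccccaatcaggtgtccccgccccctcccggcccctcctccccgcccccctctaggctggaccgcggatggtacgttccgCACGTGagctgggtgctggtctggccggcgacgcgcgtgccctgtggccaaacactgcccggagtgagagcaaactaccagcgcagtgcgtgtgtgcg
Bmal1: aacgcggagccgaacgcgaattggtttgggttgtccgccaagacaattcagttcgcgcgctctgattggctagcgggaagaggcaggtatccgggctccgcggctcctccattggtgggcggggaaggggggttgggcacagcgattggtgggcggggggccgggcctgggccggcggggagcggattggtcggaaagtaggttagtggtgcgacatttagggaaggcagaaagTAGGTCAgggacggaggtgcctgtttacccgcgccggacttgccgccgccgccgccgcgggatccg
These windows lie at chr9:99496944-99497243 (minus strand, Per2), chr7:115206577-115206876 (plus strand, Tef), chr10:84229405-84229704 (minus strand, Nr1d1), chr4:180569306-180569605 (minus strand, Bhlhe41) and chr1:176766078-176766377 (plus strand, Bmal1). For Nr1d1 the E-box stood before the downstream of its 2 listed starts. The windows of Per1 (chr10:54304126-54304425) and Tef lay well inside these genes, whose outermost starts are at chr10:54299002 and chr7:115197180. The E-box was found in 4 of the 10 clock output genes, with 3 copies in Ciart, against 6.42% of the 33469 windows of this length. The count is by gene, with 2 windows searched for Nr1d1, whereas the share is by window. The D-box (TTATGTAA or TTATGCAA on either strand) was found in Per2 alone, against 1.73% of all windows. Neither TAGGTCA (2.63% of all windows) nor the cyclic AMP element TGACGTCA (1.83%) stood in the window of a clock output gene. The letters of a motif are no proof of binding, and windows without a match were only searched for these letters.

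No clock output gene was called altered in LV of L-MI rats, in which 3.22% of all transcript clusters were. A call needed a 1.3-fold difference in either direction together with an adjusted p (Benjamini-Hochberg) no higher than 0.05, in a limma model over the 23 LV arrays. None of the 9 genes was called under any of the alternative fits, and 1 of them, Tef, had an unadjusted p under 0.05, as did 21.5% of all transcript clusters. The median log2 fold change of the 9 genes was -0.07, against -0.01 over all transcript clusters. Means were lower in L-MI than in sham for 7 of the 9 genes, which are not separate observations, since these genes varied together between arrays.

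Tef and Nr1d2 lay lowest in L-MI relative to sham. Tef encodes a transcription factor that binds D-boxes. Its signal was 9.01, 9.23, 9.02, 8.61 and 9.40 in the 5 L-MI ventricles, against a lowest, median and highest value of 9.18, 9.35 and 9.51 in sham. In 3 of the 5 L-MI ventricles it was below every sham value, and the other 2 lay within the sham range. The log2 fold change was -0.30 ± 0.14 (SE; 95% interval -0.59 to -0.02; limma adjusted p = 0.193; exact permutation p = 0.039). Nr1d2 was at 8.73, 8.78, 8.56, 7.92 and 9.58 in L-MI, against 8.78, 9.15 and 9.63 as lowest, median and highest in sham. L-MI replicate 4 was far below and L-MI replicate 5 near the top of the sham range. The log2 fold change of Nr1d2 was -0.46 ± 0.25 (95% interval -0.97 to 0.05; limma adjusted p = 0.288), and it ran between -0.68 and -0.27 when each array was left out in turn.

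Dbp, the D-box activator whose transcript swings widely over the day in many tissues, did not separate the groups. Its signals were 9.74, 9.51, 9.71, 9.22 and 10.60 in L-MI, against 9.51, 9.78 and 10.30 as lowest, median and highest in sham. L-MI replicate 4 held the lowest and L-MI replicate 5 the highest value of all 23 ventricles. The log2 fold change was -0.07 (95% interval -0.45 to 0.32), and Dbp of L-MI thus ranged more widely than it differed from sham. Nr1d1, which encodes REV-ERB alpha, was at 8.21, 7.99, 8.06, 7.76 and 9.39 in L-MI, against 7.84, 8.37 and 8.90 as lowest, median and highest in sham. The log2 fold change was -0.05 (95% interval -0.55 to 0.45), and -0.33 without L-MI replicate 5.

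The Per genes encode the repressors of the loop, and Cry2 a partner of theirs. Per3 was at 8.14, 8.14, 8.05, 7.38 and 8.91 in L-MI, against 7.91, 8.38 and 8.80 as lowest, median and highest in sham (log2 fold change -0.22, 95% interval -0.83 to 0.38). Per1, which glucocorticoids induce rapidly, differed by -0.11 (-0.57 to 0.35), and Per2 by 0.03 (-0.37 to 0.43). The 6 sham ventricles lay within 8.51 to 8.69 for Per2, a narrower span than the 8.22 to 9.02 of the 5 L-MI ventricles. Cry2 differed by 0.06 (-0.05 to 0.17), and Bhlhe41, which encodes the E-box repressor DEC2, by -0.06 (-0.26 to 0.14). These intervals all contain 0, and that of Per3 reaches beyond a fold of 1.3 in both directions.

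**Figure D1:**
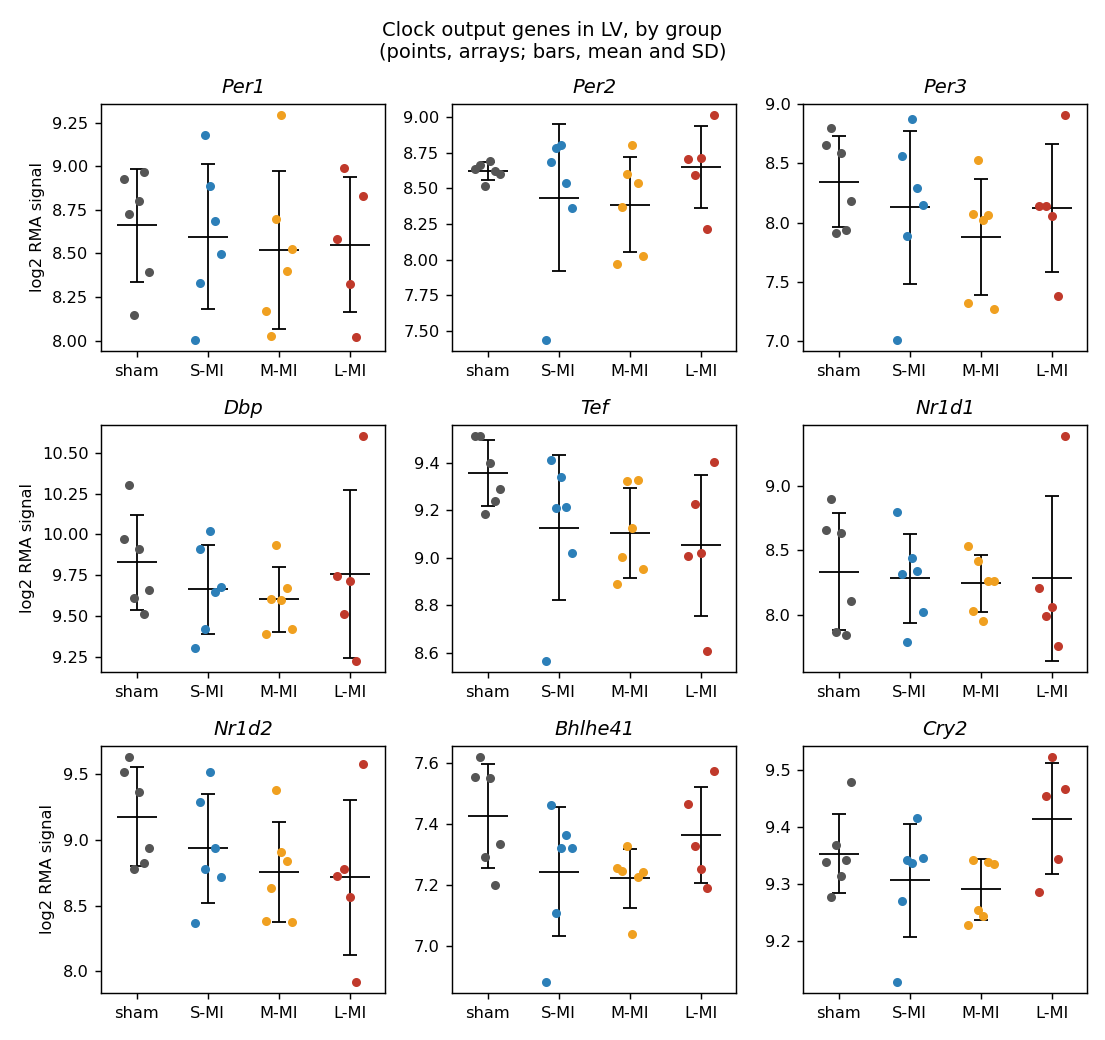
Signal of each clock output gene (log2, vertical axis) in the LV of sham, S-MI, M-MI and L-MI rats, with 1 point per array and bars for mean and SD. The groups overlapped for all 9 genes, and single arrays such as S-MI replicate 1 (Per2 7.44) and L-MI replicate 5 (Nr1d1 9.39) stood apart from their group.

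In the smaller infarcts the pattern was of the same kind. No clock output gene was called in M-MI or S-MI against sham, where 0% of all transcript clusters were called in either comparison. At an unadjusted p under 0.05 there was 1 gene in M-MI (7.03% of all transcript clusters) and 0 in S-MI (6.33%). That gene was Bhlhe41, with a mean of 7.22 ± 0.10 in M-MI and 7.42 ± 0.17 in sham (SD, n = 6 each; log2 fold change -0.20, 95% interval -0.39 to -0.01; limma adjusted p = 0.704). All 9 means were below sham in M-MI and in S-MI, which share the sham arrays with each other and with the L-MI comparison. Over all transcript clusters the median log2 fold change was -0.0029 in M-MI and 0.0022 in S-MI. The 9 genes varied together between arrays (median r over pairs 0.57), so their directions are not 9 separate observations. The log2 fold changes in M-MI lay between -0.46 (Per3) and -0.06 (Cry2), with a median of -0.23, and those in S-MI between -0.24 (Nr1d2) and -0.05 (Cry2), with a median of -0.18. For Per3 the 95% interval in M-MI was -1.04 to 0.11, and for Nr1d2 it was -0.91 to 0.06.

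Set against the smaller infarcts, L-MI showed no called clock output gene either, while 2.68% of all transcript clusters were called against M-MI and 2.48% against S-MI. Cry2 averaged 9.41 ± 0.10 in L-MI (SD, n = 5) and 9.29 ± 0.05 in M-MI (SD, n = 6), a log2 difference of 0.12 (limma adjusted p = 0.189; exact permutation p = 0.024). It was the only one of the 9 genes with an unadjusted limma p under 0.05 in these comparisons. Of all transcript clusters, 18.9% had such a p against M-MI and 21.3% against S-MI.

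Between the ventricles of a single group, the clock output genes varied more than most genes. The SD within groups, pooled over the 4 groups, had a median of 0.343 over the 9 genes and of 0.133 over all transcript clusters. It was 0.523 for Per3 (percentile 99.2 among all transcript clusters), 0.440 for Nr1d2 (98.4), 0.431 for Nr1d1 (98.3), 0.398 for Per1 (97.7), 0.343 for Per2 (96.4) and 0.330 for Dbp (96.0). Tef followed at 0.241 (90.5) and Bhlhe41 at 0.164 (70.7). Cry2 was the exception, with an SD of 0.0805 (12.4). Across all ventricles Per3 spanned a 3.73-fold range and Cry2 a 1.31-fold range. Bmal1, the activator that is not itself an output gene, spanned a 5.28-fold range with an SD of 0.598 (percentile 99.7).

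This variation was shared between the genes and opposed to that of Bmal1. In the ventricle with the lowest Bmal1 (6.66, L-MI replicate 5) Dbp was at 10.60, Nr1d2 at 9.58 and Per3 at 8.91. In the ventricle with the highest Bmal1 (9.07, S-MI replicate 1) Dbp was at 9.30, Nr1d2 at 8.37 and Per3 at 7.01. Sham replicate 2 stood near the first (Bmal1 6.72, Dbp 10.30, Per3 8.80) and M-MI replicate 1 near the second (Bmal1 8.79, Dbp 9.39, Per3 7.32). These ventricles came from different groups, and the arrays at either end were not those of 1 infarct size. Of the 7 arrays with Bmal1 at 7.36 or below, 3 were sham, 2 S-MI, 1 M-MI and 1 L-MI. Of the 4 with Bmal1 at 8.40 or above, 1 was S-MI, 2 were M-MI and 1 was L-MI, without a sham array among them. The remaining 12 lay between 7.75 and 8.08 and held 3 arrays of each group. Bmal1 itself was not called, and averaged 7.46 ± 0.51 in sham, 7.94 ± 0.66 in S-MI, 8.09 ± 0.57 in M-MI and 7.74 ± 0.65 in L-MI (SD).

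**Figure D2:**
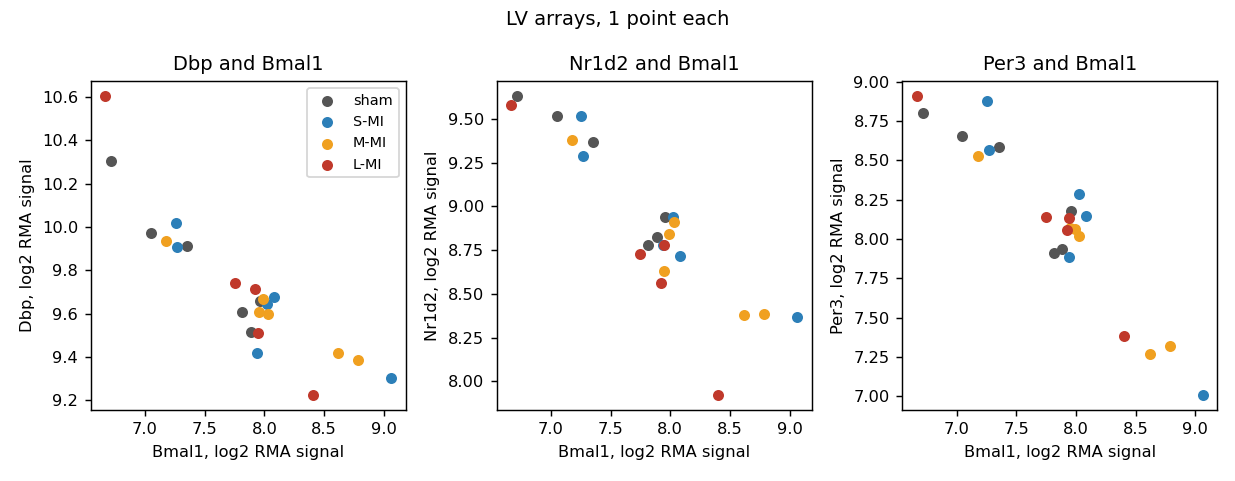
Signal of Dbp, Nr1d2 and Per3 (log2, vertical axes) against that of Bmal1 (log2, horizontal axis), with 1 point for each of the 23 LV arrays, coloured by group. Arrays with Bmal1 at 7.36 or below had the highest values of all 3 genes, arrays at 8.40 or above the lowest of Nr1d2 and Per3 and, together with S-MI replicate 3, of Dbp, and 12 arrays lay between 7.75 and 8.08.

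The relations were measured with the group means taken off, by Pearson's r and Spearman's rho over the 23 LV arrays. Two-sided p came from 100000 permutations within groups, and were adjusted over 26 relations, 13 in each tissue. Dbp ran with Nr1d2 (r = 0.93, rho = 0.88, adjusted p = 6.5e-05 and 8.67e-05) and Per3 (r = 0.88, rho = 0.94, adjusted p = 6.5e-05 and 8.67e-05), for which the unadjusted p of 1e-05 is the smallest these permutations can give. The same held for Tef (r = 0.77, rho = 0.75, adjusted p = 0.000446 and 0.000891), Bhlhe41 (r = 0.76, rho = 0.81, adjusted p = 0.00026 and 0.000433), Nr1d1 (r = 0.71, rho = 0.62, adjusted p = 0.0133 and 0.0178) and Per2 (r = 0.61, rho = 0.64, adjusted p = 0.00192 and 0.00322). Per1 (r = 0.32, rho = 0.28, adjusted p = 0.237 and 0.312) and Cry2 (r = 0.12, rho = 0.09, adjusted p = 0.699 and 0.731) did not pass.

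The activators ran against Dbp. Its relation to Bmal1 had r = -0.91 and rho = -0.90 (adjusted p = 6.5e-05 and 8.67e-05), that to Clock r = -0.78 and rho = -0.80 (0.000104 and 0.000416) and that to Npas2 r = -0.77 and rho = -0.82 (6.5e-05 and 0.00013). Nfil3, which encodes the D-box repressor E4BP4, had r = -0.58 and rho = -0.56 (0.0193 and 0.018). Cry1 did not pass (r = 0.14, rho = 0.17, adjusted p = 0.63 and 0.561). Without the 2 arrays farthest from the median of Dbp, sham replicate 2 and L-MI replicate 5, the relations to Nr1d2 (r = 0.92), Per3 (0.93), Tef (0.78), Bhlhe41 (0.74), Per2 (0.66), Bmal1 (-0.90), Npas2 (-0.79) and Clock (-0.80) still passed. Those to Nr1d1 (r = 0.36, p = 0.144) and Nfil3 (r = -0.28, p = 0.21) rested on these 2 arrays. After adjustment, that to Nr1d1 also missed the threshold without L-MI replicate 5 alone (r = 0.50), and that to Nfil3 without either L-MI replicate 5 (r = -0.42) or sham replicate 2 (r = -0.52).

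Dbp itself had no gap over 0.17 between neighbouring arrays apart from its 2 highest, whereas Bmal1 had gaps of 0.39 and 0.32 on both sides of the 12 arrays of middle level. Within these 12 arrays, a choice made after the data were seen, Dbp had r = 0.73 with Nr1d1, 0.66 with Bhlhe41, 0.59 with Per3, -0.05 with Nr1d2, 0.08 with Bmal1 and -0.63 with Per1. They cover only 7.75 to 8.08 of the Bmal1 range. Such a restriction can lower r, but its part here was not tested, and these values are a description. In the 7 arrays with Bmal1 at 7.36 or below, with group means kept, Dbp had r = -0.91 with Bmal1. That relation did not pass after adjustment (permutation test, adjusted p = 0.0979).

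Not all clock output genes followed the same order of arrays. Of the 36 pairs among the 9 genes, 34 had r above 0 in LV and 20 had at least 0.5, with a median of 0.57. The closest pairs were Nr1d2 with Per3 (r = 0.94), Nr1d2 with Dbp (0.93) and Tef with Per3 (0.90). Nr1d1 was unrelated to Per2 (r = -0.02). S-MI replicate 1, M-MI replicate 1 and M-MI replicate 6 had the 3 lowest values of Per2 (7.44, 7.97 and 8.02) and the highest of Bmal1, yet Nr1d1 there was at 8.80, 8.54 and 8.26, within the range of sham. In L-MI replicate 4, with Bmal1 at 8.40, Nr1d1 was at 7.76, the lowest of all ventricles.

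Over all annotated genes in the brighter part of the array, the ventricle's Dbp profile was matched most closely by clock genes. Among 9307 transcript clusters with 1 symbol and a mean above the median, Nr1d2 and Per3 had the highest r of values less group means, followed by Ephx1 (0.83), Tra2b (0.80), Tspan4 (0.79), Kcnh2 (0.79), Tef, Bhlhe41, Wee1 (0.75) and Tnxa-ps1 (0.75). Ephx1 encodes microsomal epoxide hydrolase, Kcnh2 the channel of the rapid delayed rectifier current, and Wee1 a cell cycle kinase that the clock drives in mouse liver. The lowest were Bmal1, Slc41a3 (-0.90), Marcks (-0.83), Clock and Hils1 (-0.78). These r are a description over 23 arrays that share their groups and normalization. Of a list of 15 measured clock-controlled genes, Tspan4 (0.79), Wee1 (0.75) and Usp2 (0.73) were closest to Dbp. Gstt2 (-0.44) and Leo1 (-0.30) were farthest below 0. The median of this list was 0.31, against 0.01 over all transcript clusters. The median was 0.12 for 11 glucocorticoid-responsive genes, which ran from -0.65 (Cdkn1a) to 0.335. It was 0.21 for 7 temperature-responsive genes (-0.45 to 0.60, the latter Rbm3) and 0.26 for 8 immediate early genes (0.09 to 0.44). The glucocorticoid-responsive list shares Per1 with the clock output genes and Klf9 with the clock-controlled list.

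**Figure D3:**
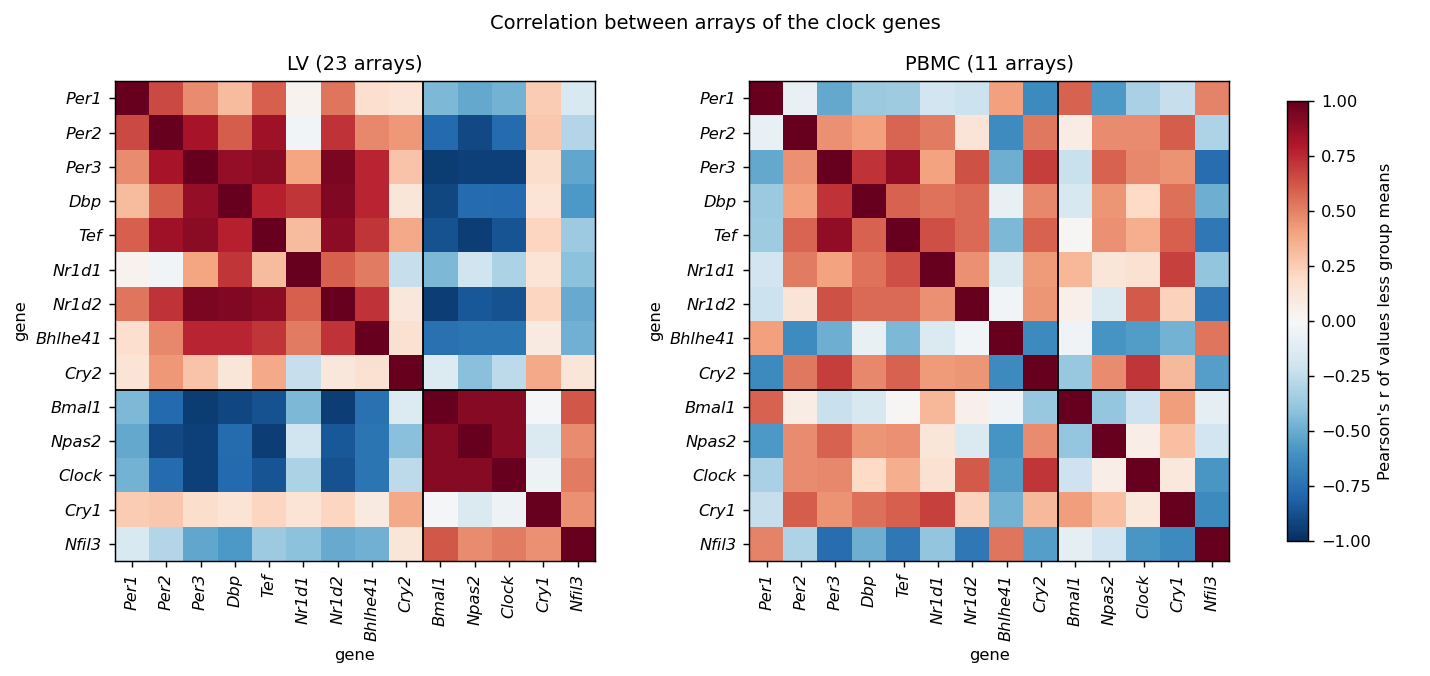
Pearson's r between pairs of clock genes over 23 LV arrays and 11 PBMC arrays (colour scale, values less group means), with the 9 clock output genes above and left of the black lines. In LV the output genes other than Nr1d1, Per1 and Cry2 formed a block of high r set against Bmal1, Npas2 and Clock (Dbp with Bmal1, -0.91), and in PBMCs Per3, Dbp, Tef, Nr1d1, Nr1d2 and Cry2 had r of 0.40 to 0.89 with each other, with no such opposition to Bmal1 (Dbp with Bmal1, -0.16).

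When the level of Bmal1 in each ventricle was entered as a covariate, the LV intervals of 8 of the 9 clock output genes narrowed, to differing extents, and that of Cry2 widened, while the differences from sham in M-MI and in S-MI turned in sign for 6 of the 9. Nr1d2 of L-MI was then -0.27 on the log2 scale against sham (95% interval -0.46 to -0.09; limma adjusted p = 0.0628), -0.29 against M-MI (-0.48 to -0.10; 0.0634) and -0.36 against S-MI (-0.55 to -0.17; 0.0151). The last passed the adjusted threshold, with a fold under 1.3. Tef of L-MI was -0.21 against sham (-0.36 to -0.06; 0.0857). Against sham, Per3 (0.01), Dbp (0.07) and Nr1d1 (0.04) changed sign in L-MI. Of the 54 values of the 9 genes in the 6 comparisons within a tissue, 6 had an unadjusted p under 0.05 with the covariate. They were 2 in L-MI against sham (21% of all transcript clusters), 3 against M-MI (18.2%) and 1 against S-MI (21.1%), with 0 in M-MI (4.94%) and S-MI (5.79%) against sham and 0 in PBMCs (3.75%). The transcript clusters called in L-MI against sham numbered 935 with the covariate and 941 without it, 883 of them in both. Bmal1 is part of the same loop, so that a change of the loop with infarction cannot be told apart from a difference between arrays by this fit.

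**Figure D4:**
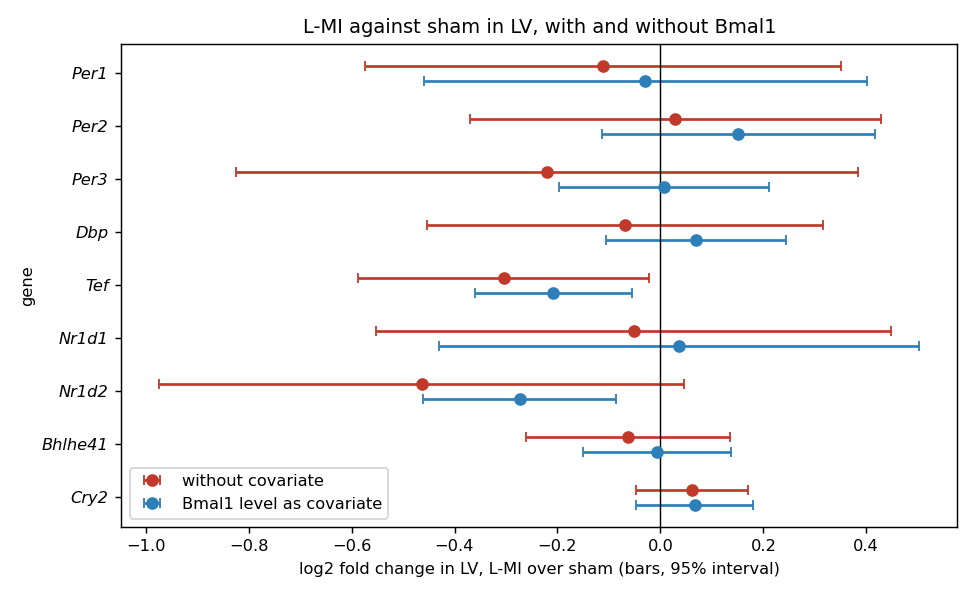
Log2 fold change in LV of L-MI over sham for each clock output gene (horizontal axis, points with 95% intervals), without a covariate in red and with the Bmal1 level as covariate in blue. With the covariate the interval of Nr1d2 was -0.46 to -0.09 and that of Tef -0.36 to -0.06, and the other 7 contained 0.

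Markers of other cell types moved with large infarction. All 6 macrophage and monocyte markers were called higher in L-MI, with mean levels of 8.97 to 9.60 in L-MI arrays and 8.35 to 8.59 in sham arrays, as were 3 of 6 fibroblast markers (mean levels 9.40 to 10.07 in L-MI and 8.68 to 8.95 in sham). None of the 7 cardiomyocyte markers was called (12.86 to 12.95 in L-MI and 12.99 to 13.01 in sham), although Myh6 (-0.29, limma adjusted p = 0.00472), Ryr2 (-0.13, 0.0321) and Tnni3 (-0.12, 0.0356) were lower past the adjusted threshold with a fold under 1.3. Of 5 endothelial markers 0 were called, and Tek (-0.17, limma adjusted p = 0.0393) was likewise lower with a fold under 1.3. Of 3 erythroid markers, 1 was called lower, Slc4a1 (-0.52, limma adjusted p = 0.0181). Their part in the values of Tef and Nr1d2 was not tested. Within groups the median r with Dbp was 0.31 for the macrophage list, 0.39 for the fibroblast list and -0.14 for the cardiomyocyte list.

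The rest of the clock was measured by 11 of 16 further genes, and none of them was called at both thresholds in L-MI. Btrc, which encodes an F-box protein that marks PER proteins for degradation, was higher by 0.30 ± 0.05 on the log2 scale (SE; limma adjusted p = 0.000353), with a fold under 1.3. Bmal2 (0.23, adjusted p = 0.0694) and Csnk1e (-0.09, adjusted p = 0.16) had an unadjusted p under 0.05. Of the 15 clock-controlled genes, 1 was called in L-MI against sham, namely Usp2, a deubiquitinase that cycles in many tissues of mice (log2 fold change -0.42 ± 0.13, adjusted p = 0.0409). Nampt, the rate-limiting enzyme of NAD salvage, differed by -0.32 ± 0.06 (adjusted p = 0.00149) and Herpud1 by -0.24 ± 0.06 (adjusted p = 0.0164), both with a fold under 1.3. Tspan4, which encodes a tetraspanin, was higher by 0.33 against sham (adjusted p = 0.0966) and was called higher against M-MI (0.44, adjusted p = 0.0264). In M-MI and S-MI 0 of the 15 were called, and 0 and 1 had an unadjusted p under 0.05.

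In PBMCs the clock output genes did not separate L-MI from sham either. Calls there needed a 1.2-fold difference and an unadjusted limma p of 0.05 or less, and were made for 0.924% of all transcript clusters and for 0 of the 9 genes. None of the 9 had an unadjusted p under 0.05, against 3.77% of all transcript clusters, or an adjusted p under 0.9997. The log2 fold changes lay between -0.08 (Per2, 95% interval -0.28 to 0.12) and 0.05 (Cry2, -0.05 to 0.16). Dbp was at 10.07, 10.31, 10.10, 10.14 and 10.13 in L-MI, against 10.03, 10.18 and 10.36 as lowest, median and highest in sham. All 5 L-MI values lay within the sham range, and the difference of -0.03 had a 95% interval of -0.18 to 0.12. Bhlhe41 was at 7.13, 6.18, 6.15, 5.69 and 6.16 in L-MI, against 5.98, 6.31 and 6.42 as lowest, median and highest in sham. Its highest and lowest values both came from L-MI, and its interval of -0.42 to 0.42 was the widest of the 9. The mean signal of Bhlhe41 over all PBMC arrays was low, at 6.26 with array medians of 6.97 to 7.01.

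**Figure D5:**
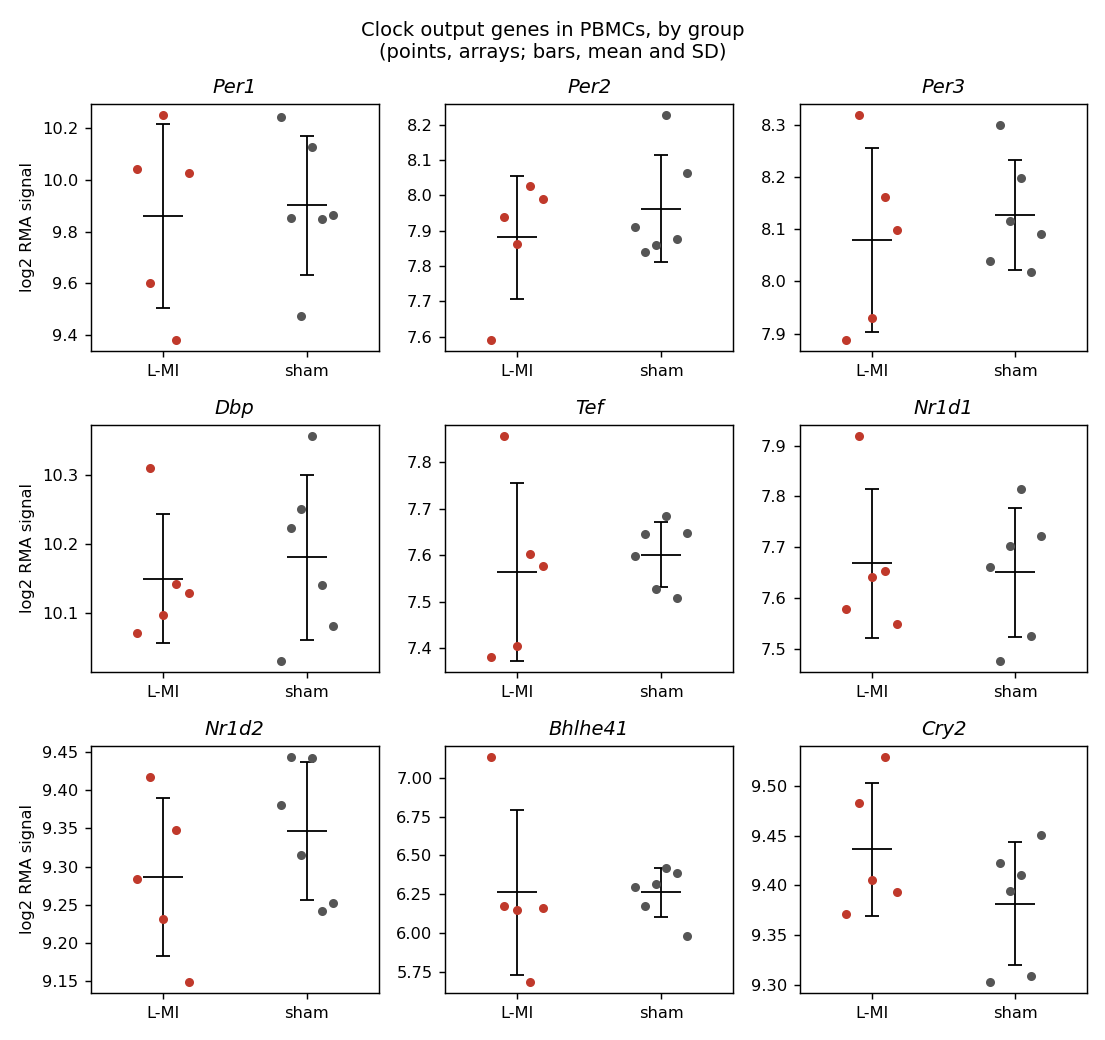
Signal of each clock output gene (log2, vertical axis) in PBMCs of L-MI and sham rats, with 1 point per array and bars for mean and SD. The groups overlapped for all 9 genes, and Bhlhe41 of L-MI replicate 1 (7.13) stood above all other arrays.

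The spread between PBMC arrays was smaller than in LV for 8 of the 9 genes. Within groups the pooled SD was 0.110 for Dbp (percentile 39.1 among all transcript clusters), 0.141 for Per3 (63.0), 0.0965 for Nr1d2 (27.4) and 0.0640 for Cry2 (5.18), and that of Bmal1 was 0.0738 (10.1). Only Bhlhe41 (0.372, percentile 96.6), whose signal was low in PBMCs, and Per1 (0.311, percentile 94.4) were near the top. Across all arrays Dbp spanned a 1.26-fold range in PBMCs.

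Of the 13 relations of Dbp in PBMCs, 1 passed after adjustment, that to Per3 (r = 0.73, rho = 0.74, adjusted p = 0.0193 and 0.018). Without the 2 arrays farthest in Dbp, sham replicate 4 and L-MI replicate 2, it had r = 0.61 and an unadjusted permutation p of 0.0596, so that the call was lost while r was little lower. Without them Per1 (r = -0.67, adjusted permutation p = 0.0296) and Npas2 (r = 0.64, adjusted permutation p = 0.029) passed instead. No relation passed without L-MI replicate 1, 2 or 3, and Tef passed beside Per3 without sham replicate 3 (r = 0.67) or 6 (r = 0.68). The relation to Bmal1 had r = -0.16 and rho = -0.10 (adjusted p = 0.699 and 0.758), and those to Tef (r = 0.59, adjusted p = 0.0792) and Nr1d2 (r = 0.57, adjusted p = 0.144) did not pass. Of the 36 pairs of clock output genes, 22 had r above 0 in PBMCs and 13 had at least 0.5, with a median of 0.42, and the closest was Tef with Per3 (r = 0.89). The difference between the tissues in these values was not tested. The 10 genes most like Dbp held no clock gene and were led by Wdr46 (r = 0.97), Supt7l (0.95) and Slc31a2 (0.94), over 11 arrays. The 5 T cell markers had r of 0.11 to 0.87 with Dbp within groups (median 0.64, against 0.047 over all transcript clusters), with mean levels of 11.69 to 11.93 in L-MI and 11.69 to 11.91 in sham arrays, and their part in these relations was not tested.

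The difference between tissues in the effect of L-MI was fitted as an interaction over the 22 arrays of both tissues, taken as independent. The study took heart and blood from its rats, so arrays of LV and PBMCs may share a rat. Which of them do is not stated in the sources used here. The interaction passed an adjusted p of at most 0.05 for 0 of the 9 genes and for 2.55% of all transcript clusters, and 0 of the 9 had an unadjusted p under 0.05 (13.2% of all). The largest differences, LV minus PBMCs, were those of Nr1d2 (-0.40, 95% interval -0.97 to 0.16) and Tef (-0.27, -0.58 to 0.05), and all 9 intervals contained 0. Of the other clock genes, Btrc passed, and of the clock-controlled genes Usp2 (-0.45, limma adjusted p = 0.0351).

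The labels give no batch, date or sampling time for the arrays, and no fit within batches was possible. Whether the arrays at the ends of the Bmal1 range differed in time of day, anaesthesia or handling was not tested. All values are limited in precision by the few arrays per group.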

How the data were processed

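The authors hybridized RNA of each rat and tissue to its own Affymetrix Rat Gene array and deposited signals that, per the labels, came from RMA and Partek (versions not given in the sources used here). RMA corrects background, equalizes arrays by quantiles and sums probes, and its values as deposited by the authors were read as log2, since no source names the base. Array medians of 6.52 to 6.61 in LV and 6.97 to 7.01 in PBMCs show separate normalization. Of 29214 transcript clusters, 15316 had 1 gene symbol, 317 several and 13581 none. RefSeq sequences are of GRCr8, and coordinates of the array build were not used. Replicates within a tissue were separate rats, per the study's methods.

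Comparisons were fitted with limma 3.58.1 in R 4.3.3 over all transcript clusters, with a mean per group. The study's methods name fold and p thresholds, which were used. Relations, spread, motifs and figures used Python 3.11.15, NumPy, SciPy and matplotlib. Permutations numbered 100000. Fits and relations were tested on simulated data. Alternatives were an unmoderated linear model, fits to the compared groups alone, a mean-variance trend, weighted arrays, a filter on the 30% of transcript clusters with the lowest signal, arrays centred or quantile-normalized again, other call thresholds, the replicate number as block, the Bmal1 level as covariate and single arrays removed. Averaging all rows of a symbol was not applicable, since each gene had 1. The named genes were all measured members, further genes by lists, and the 10 highest and 5 lowest in r with Dbp. Members, lists and tests were chosen with earlier results of these data known. Raw array and RT-qPCR data were not used here.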

Additional observations from a re-analysis of the deposited data

Results flagged for a closer look

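Of the 54 combinations of a clock output gene and a group, 4 held an array whose gap to its nearest neighbour was too large a part of the group's range by Dixon's criterion, which chance alone meets in about 1 of 20 groups. In LV of S-MI, Per2 of replicate 1 was at 7.44, against 8.36 to 8.80 in the other 5 arrays, and the same array had the highest Bmal1 of all ventricles (9.07). In LV of L-MI, Nr1d1 of replicate 5 was at 9.39, against 7.76 to 8.21 in the other 4, and Dbp there was at 10.60. In LV of M-MI, Bhlhe41 of replicate 4 was at 7.04, against 7.22 to 7.33. In PBMCs of L-MI, Nr1d1 of replicate 2 was at 7.92, against 7.55 to 7.65, and Dbp of that array was the highest of its group (10.31). No cause of these values was tested.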

How the results depend on the processing

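The number of called clock output genes was 0 under every alternative in all 7 comparisons, also with the unmoderated linear model, with the adjusted p alone in LV and without each array in turn. The values then counted were fold changes against sham in each tissue, relations of Dbp in LV, and numbers of calls and of passed relations. For single genes in the remaining comparisons, only Cry2 of L-MI against M-MI and Nr1d2 of L-MI against S-MI were counted. A number of calls or relations that changed little was taken as kept. Of 472 values under alternatives other than leaving out 1 array, 430 kept their direction and their side of the threshold, and the 32 that changed sign concerned values that were not called or relations within a restricted set of arrays. The cause of these changes was not tested. The small number of arrays limits all of them.

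With the Bmal1 level as a covariate, log2 fold changes turned to 0.0068 (Per3), 0.069 (Dbp) and 0.037 (Nr1d1) in LV of L-MI, to 0.047 (Per1), 0.045 (Per2), 0.058 (Per3), 0.090 (Dbp), 0.11 (Nr1d1) and 0.013 (Nr1d2) in M-MI, and to 0.078 (Per1), 0.025 (Per2), 0.18 (Per3), 0.073 (Dbp), 0.10 (Nr1d1) and 0.087 (Nr1d2) in S-MI. In PBMCs they turned to 0.18 (Per1) and -0.014 (Bhlhe41). Array weights gave 0.0076 (Per1) and -0.038 (Bhlhe41) in PBMCs. Median centring gave -0.00015 for Per2 in LV of L-MI.

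Same-numbered arrays of different groups were not shown to be paired, since their deviations from the group means had r of -0.26 to 0.26 between LV groups and -0.05 to 0.14 between LV and PBMCs. The fit with the replicate number as block changed no call of a clock output gene, and gave -0.00099 for Per2 in LV of L-MI and -0.055 for Bhlhe41 in PBMCs. Over all transcript clusters it called 928 in LV of L-MI against sham and 457 in PBMCs, where the main fit called 941 and 270. Between the tissues the block correlation was 0.0349.

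The number of relations of Dbp that passed in LV was 10, and 0 in the 12 arrays of middle Bmal1 level. This alternative was chosen after the data were seen. Its narrow Bmal1 range can lower r, which was not tested. There r was -0.63 (Per1), -0.36 (Per2), -0.36 (Tef), -0.048 (Nr1d2), 0.078 (Bmal1), 0.25 (Npas2), 0.35 (Clock) and 0.22 (Nfil3). Without the L-MI arrays r was -0.034 for Cry2 and -0.18 for Cry1. In PBMCs 1 relation passed, 2 others (Per1 and Npas2) did without the arrays farthest in Dbp and 0 without the L-MI arrays.

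Leaving out each array in turn, log2 fold changes in LV of L-MI ranged over -0.22 to 0.021 (Per1), -0.062 to 0.14 (Per2), -0.28 to 0.065 (Dbp) and -0.33 to 0.080 (Nr1d1). In M-MI that of Nr1d1 ranged over -0.19 to 0.022, and in S-MI they ranged over -0.18 to 0.054 (Per1), -0.26 to 0.012 (Per2), -0.37 to 0.0075 (Per3) and -0.15 to 0.061 (Nr1d1). In PBMCs they ranged over -0.14 to 0.080 (Per1), -0.11 to 0.00071 (Per3), -0.071 to 0.0043 (Dbp), -0.11 to 0.0088 (Tef), -0.045 to 0.051 (Nr1d1) and -0.22 to 0.14 (Bhlhe41). In LV the r with Dbp ranged over -0.042 to 0.22 for Cry2 and -0.037 to 0.43 for Cry1, 8 to 10 relations passed, and 0 to 2 did in PBMCs.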
